A study of Mus musculus with 8 samples.

Results

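The genes described here are 32 immediate early genes and feedback genes of the ERK pathway, taken from the count table by their symbols: those that growth factor signalling through ERK induces, and those whose products restrain it. All 32 had a row of their own among the 23827 rows of the table, and 28 had enough counts to be tested, of 14592 genes tested in all. Superior cervical ganglia, the paired sympathetic ganglia at the top of the chain, came from C57Bl6/n mice on postnatal day 1. All animals carried the floxed allele KIF1Bb fl/fl. The 4 control animals were DBHcre -/-, and the 4 conditional knockout (cKO) animals were DBHcre +/-, with 1 library of polyadenylated RNA per animal from its pair of ganglia. Cre is under the promoter of Dbh, which noradrenergic cells use, so glia, vessels and connective tissue would keep an intact allele. Recombination in each cell type was not measured in these data. As only cKO animals carried Cre, the presence of Cre and the loss of KIF1B beta cannot be told apart.

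Growth factors such as nerve growth factor, on which newborn sympathetic neurons depend for survival, switch on receptor tyrosine kinases and, through Ras and Raf, the kinases MEK and ERK. ERK activates transcription factors that are already present in the cell, and immediate early genes are transcribed within minutes, without new protein synthesis. Many of them encode transcription factors (the EGR, AP-1 and NR4A families). The feedback genes encode brakes: DUSP phosphatases that inactivate MAP kinases, and Sprouty and Spred proteins that act above ERK. Messages of immediate early genes are short-lived, and stress, handling of tissue and neuronal activity induce many of these genes too. KIF1B beta is a kinesin that carries cargo along axons. The question for these genes was whether their levels differed between cKO and control ganglia.

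Total counts were between 16214912 and 18114418 per library. Kif1b, the targeted gene, had between 933 and 1454 CPM (counts relative to the library size, scaled by the TMM method) in the control and between 191 and 302 CPM in the cKO libraries, a log2 fold change of -2.24 with an SE of 0.18 (edgeR adjusted p = 3.43e-04). The noradrenergic markers Th and Dbh had at least 20124 and 35526 counts in every library. The first principal component, with 37.1% of the variance, set control 1 and cKO 1 (-32.9 and -37.1) apart from the other libraries, with cKO 3 next at -12.8. The second, with 28.5%, separated every control from every cKO library. Summed levels of cell type markers also differed between the groups. The 10 noradrenergic markers summed to 17980 to 18967 CPM in control and 14735 to 16119 CPM in cKO libraries, with 0 of 10 past the threshold. They did not move together: 8 had negative and 2 positive log2 fold changes, from -0.51 for Slc6a2 to 0.30 for Isl1, with Th at -0.12. The 8 vessel markers summed to 239 to 299 and 369 to 454 CPM (4 higher), the 8 fibroblast markers to 5214 to 6723 and 7252 to 10647 CPM (5 higher), and the 8 markers of satellite glia and Schwann cells to 789 to 1019 and 1022 to 1189 CPM (0 passed). The 8 macrophage markers summed to 159 to 250 and 195 to 324 CPM and the 6 sensory neuron markers to 28.1 to 72.3 and 28.4 to 170 CPM, with none past the threshold. In bulk tissue, fewer cells of a type and less RNA per cell cannot be told apart.

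In control ganglia these genes spanned 4 separate ranges of level, in RPKM (CPM per kilobase of exon). The highest range held 5 genes, led by Jund, an AP-1 subunit that many cells make without stimulation, at 34.5 ± 20.5 RPKM (SD, n = 4), followed by Spry2, Dusp1, Spry4 and Dusp6 between 14.4 and 12.7 RPKM. A further 10 genes, from Spred2 at 8.13 RPKM to Spry1 at 5.94 RPKM, included Fos, Ier2, Nr4a1, Klf10 and Etv5. The next 11 ran from Junb at 2.89 RPKM to Dusp5 at 0.460 RPKM and included Egr1 and Etv4. The lowest 6 were Arc, Egr3, Fosb, Nr4a3, Fosl1 and Egr4, at 0.144 RPKM or less. Neighbours in the order had overlapping control values within each range, and non-overlapping ones only at the steps from Dusp6 to Spred2, from Spry1 to Junb and from Dusp5 to Arc. All 5 Sprouty and Spred genes lay in the upper 2 ranges, as did Dusp1 and Dusp6, while Dusp4 and Dusp5 lay in the third.

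**Figure D1:**
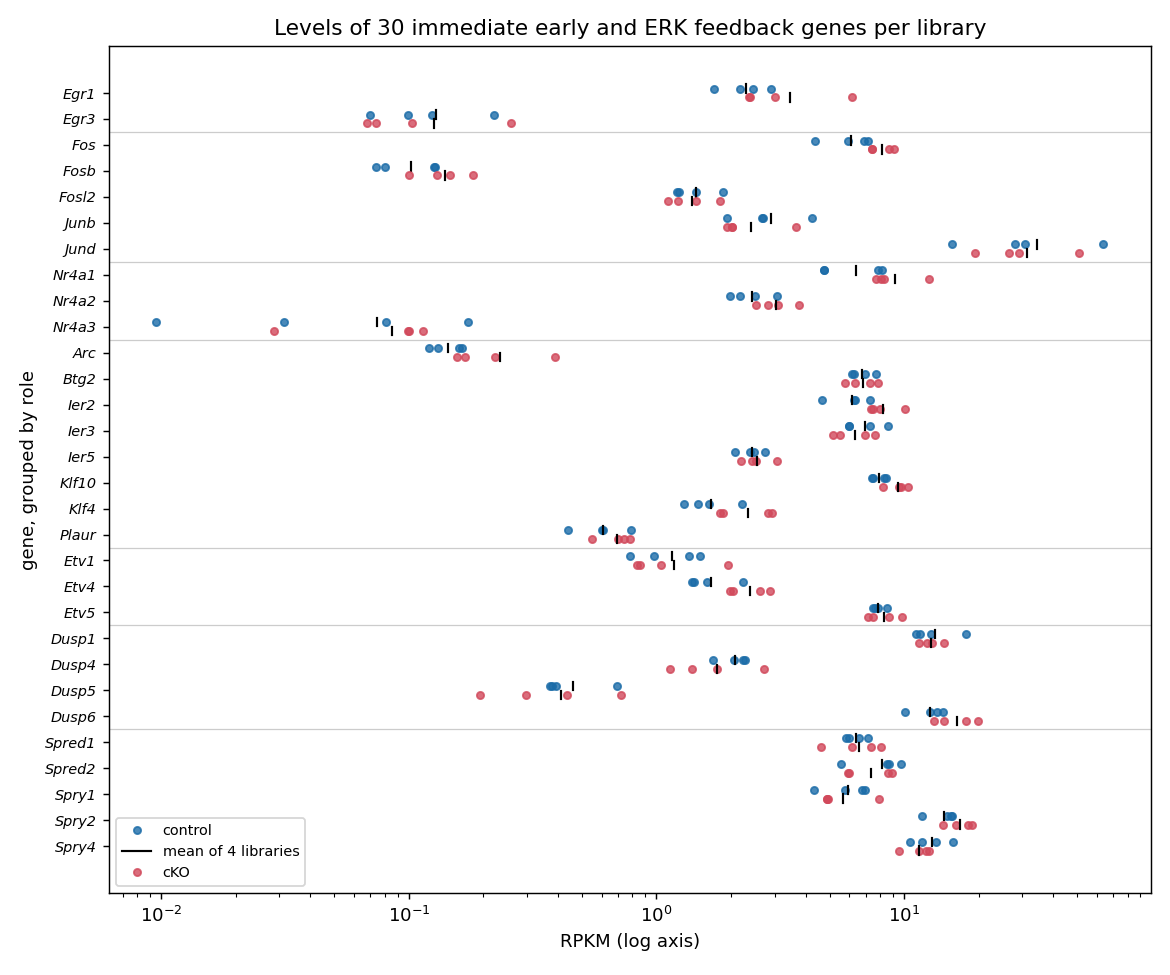
Level of 30 genes in RPKM (horizontal log axis), by role, with 1 point per library (blue control, red cKO) and a bar at the mean of each group of 4. Egr4 and Fosl1, at 0 counts in some libraries, are not drawn. The genes spread from Jund near 34.5 RPKM to Nr4a3 below 0.144 RPKM, and control and cKO points overlap for every gene drawn except Fos and Ier2.

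None of the 28 tested genes passed in edgeR's quasi-likelihood test (adjusted p below 0.05 over all tested genes), where 2.72% of all tested genes did (1.6% higher and 1.12% lower in cKO), and the smallest adjusted p was 0.222. DESeq2 and limma voom also called 0 of the 28, where they called 1012 and 414 genes over the whole table. At an unadjusted p below 0.05 there were 6, Fos, Ier2, Nr4a1, Klf10, Etv4 and Dusp6, all with higher means in cKO ganglia, where 16.8% of all tested genes met that limit and 9.42% met it and were higher. This count was 1 without control 2, without control 4 or without cKO 1, and 3 without cKO 3. The share of all tested genes at that limit was not counted there. Over the whole table, genes past the adjusted threshold numbered 79, 74, 312 and 137 in these settings, in that order, against 397 with all libraries. Log2 fold changes were positive for 18 genes (64.3%) and negative for 10, with a median of 0.08, while 49.9% of all tested genes were positive, with a median of -0.000618. The number of positive values lay between 14 (without control 3) and 22 (without control 1) with 1 library left out.

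The precision of these comparisons can be read from the 95% intervals. For 21 of the 28 genes the interval lay within a 2-fold change in either direction, and for 25 it stayed above a 2-fold decrease. The exceptions at the lower end were Jund, Nr4a3 and Dusp5, which varied most between libraries or had few counts. On counts simulated for this comparison, edgeR recovered 21.8% of genes given a 1.5-fold change and 80.3% of genes given a 2-fold change. Changes were given only to genes above a minimum mean count, which Fosb, Nr4a3 and Dusp5 did not reach, and libraries were simulated as independent. Recovery may thus be lower for such genes. A 1.5-fold change would often not have been detected.

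**Figure D2:**
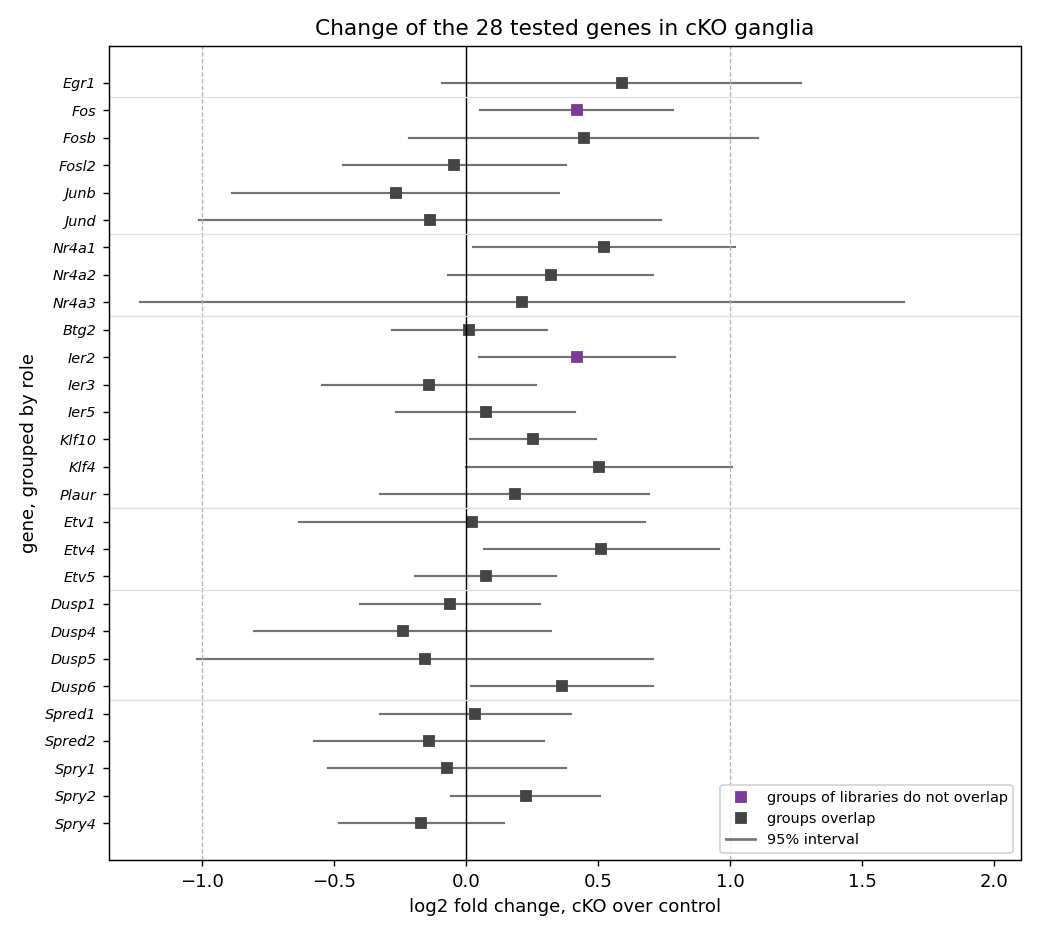
Log2 fold change of the 28 tested genes (cKO over control, horizontal axis) with 95% intervals from edgeR, grouped by role. Dashed lines mark 2-fold changes. Values run from -0.27 for Junb to 0.59 for Egr1, and purple squares mark Fos and Ier2, whose groups did not overlap.

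Promoter sequence is shown for 3 of these genes with different patterns across libraries, none of which passed. For Fos the groups did not overlap, and Nr4a1 had a lower unadjusted p than most but overlapping groups. Dusp5 was highest in control 1 and cKO 1, as were other genes such as Jund and Junb. Each stretch ends at the base before the RefSeq start site (GRCm38.p6, plus strand): chr12:85473750-85473889 for Fos, chr15:101266606-101266845 for Nr4a1 and chr19:53529045-53529144 for Dusp5. Capitals mark the half-site of the cyclic AMP response element (TGACG, bound by CREB), for Nr4a1 also the EGR motif (GCGNGGGCG), and for Dusp5 also the CArG box, the element bound by serum response factor; motifs on either strand are marked.
Fos: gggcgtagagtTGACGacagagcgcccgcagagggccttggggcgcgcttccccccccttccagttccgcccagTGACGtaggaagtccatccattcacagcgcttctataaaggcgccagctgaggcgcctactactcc
Nr4a1: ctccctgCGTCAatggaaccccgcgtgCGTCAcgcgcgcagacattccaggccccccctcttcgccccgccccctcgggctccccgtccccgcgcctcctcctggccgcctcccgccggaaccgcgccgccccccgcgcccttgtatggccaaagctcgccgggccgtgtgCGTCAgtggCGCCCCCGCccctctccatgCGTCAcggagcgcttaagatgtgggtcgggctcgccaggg
Dusp5: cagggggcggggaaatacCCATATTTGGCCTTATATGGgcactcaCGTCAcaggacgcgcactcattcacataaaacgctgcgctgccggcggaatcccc

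The Fos stretch held 2 half-sites, the Nr4a1 stretch 4 half-sites and 1 EGR motif, and the Dusp5 stretch 2 adjoining CArG boxes and 1 half-site. Of the 32 genes, 23 matched an entry of the RefSeq promoter table, which runs from 250 bases before to 50 after the start. Egr1, Egr3, Fosl1, Ier2, Arc, Dusp4, Spry4, Etv4 and Klf10 were not matched. The half-site was found in 12 of the 23 (52.2%) and in 23.0% of all 27025 genes with a promoter, and the EGR motif in 7 (30.4%) and in 6.27%. The full response element TGACGTCA, which contains the half-site, was found in Btg2 and Dusp1 (8.70%, against 2.03% of all genes), the CArG box in Dusp5 alone (4.35%, against 1.81%), and the AP-1 motif TGANTCA in Plaur alone (4.35%, against 8.97%). The ETS motif CCGGAAGT matched none of the 23 and 4.31% of all genes. The half-site was added after the matches of the other motifs had been seen, and its share depended on the window: from 100 bases before to 50 after the start it was in 5 of the 23 (21.7%) and in 15.8% of all genes. In that window the EGR motif was in 4 (17.4%) and in 4.52% of all genes. Sequence more than 250 bases before the start was not searched, so a gene without a match, such as Fos for the CArG box, may hold one there. These are matches of letters and not measured binding.

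Fos encodes the AP-1 subunit that pairs with JUN family proteins and is a classical reporter of recent stimulation (chromosome 12, 85473890 to 85477273, plus strand, GRCm38). The control libraries 1 to 4 had 16.9, 16.2, 10.3 and 14.0 CPM, and the cKO libraries 21.5, 20.4, 17.4 and 17.4 CPM. Each cKO library lay above each control library, with control 1 and the libraries cKO 3 and cKO 4 closest. The mean went from 14.3 ± 3.0 to 19.2 ± 2.1 CPM (SD, n = 4 each), a log2 fold change of 0.42 (SE 0.17, 95% interval 0.05 to 0.79) with an edgeR adjusted p of 0.225. In an exact permutation test (two-sided) p was 0.0286, which is the lowest value 70 assignments of the libraries can give, and 0.259 after adjustment over all tested genes. Ier2, a short nuclear protein gene induced together with Fos, had 11.1, 7.08, 9.56 and 9.61 CPM in control and 15.3, 11.2, 12.1 and 11.4 CPM in cKO libraries. Its groups also did not overlap, with control 1 next to cKO 2, and its log2 fold change was 0.42 (SE 0.17, 95% interval 0.05 to 0.79, edgeR adjusted p = 0.229). These were the only 2 of the 28 genes whose groups did not overlap, where 11% of all tested genes did not and 6% did not and were higher in cKO. Without control 3 or without cKO 4 there were 4 such genes. Smaller groups separate more often by chance, and the share of all tested genes was not counted there.

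**Figure D3:**
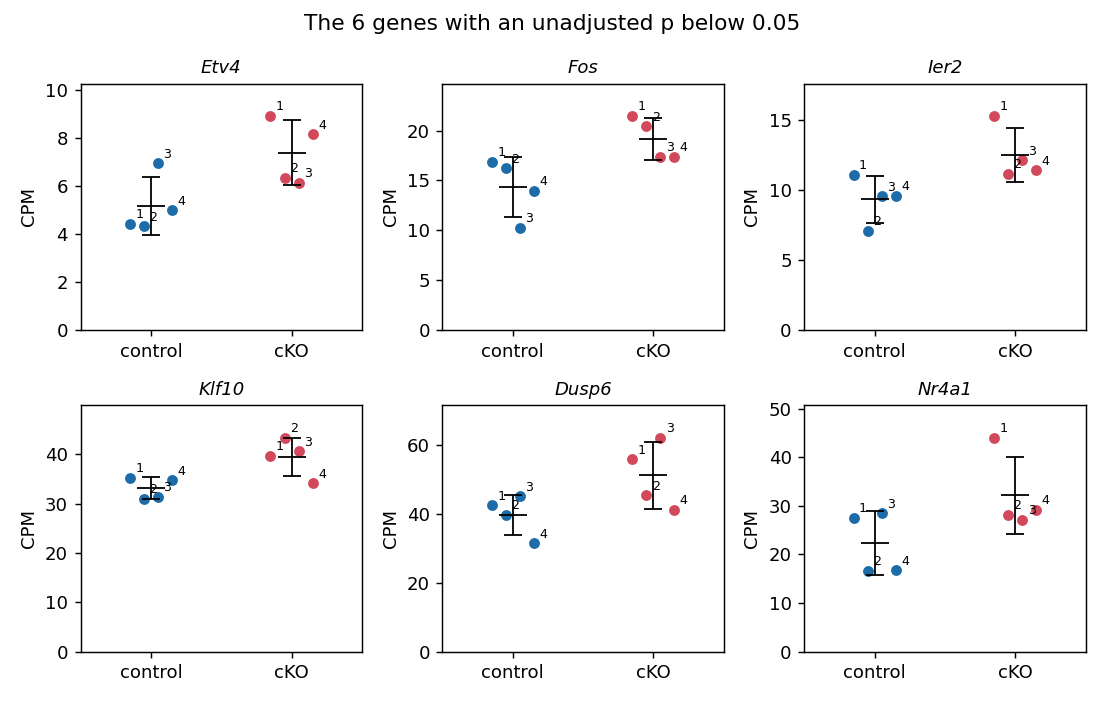
CPM per library (points, numbered as the libraries) in control and cKO ganglia for the 6 genes with an unadjusted p below 0.05, with the mean and SD of 4 libraries. The axes start at 0. Only Fos and Ier2 have cKO points that all lie above the control points, and cKO 1 is the highest point for Etv4, Fos, Ier2 and Nr4a1.

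Of the other 4 AP-1 genes tested, Fosb had a positive and Fosl2, Junb and Jund a negative log2 fold change, and none passed. Fosb, which neuronal activity induces, was near the limit of testing, with 0.637 ± 0.182 CPM for control and 0.871 ± 0.213 CPM for cKO (SD, n = 4 each; log2 fold change 0.45, SE 0.30). Fosl2 had log2 fold changes of -0.04 (SE 0.19), Junb -0.27 (SE 0.28) and Jund -0.13 (SE 0.40). Jund showed the widest spread of the well expressed genes: 106, 26.0, 46.6 and 51.4 CPM in control and 84.5, 32.4, 44.2 and 48.5 CPM in cKO libraries. It was highest in control 1 and cKO 1 and lowest in control 2 and cKO 2, and within the control group alone the highest library stood 4.09 times above the lowest. Junb was likewise highest in control 1 and cKO 1, at 9.81 and 8.40 CPM, with the other 6 libraries between 4.43 and 6.20 CPM. Junb shares 173 exon bases with Prdx2 on the opposite strand, and whether reads were assigned by strand is not stated in the labels. Jund, Dusp5 and Spry1 share 877, 547 and 710 exon bases with gene models that have no row in the table.

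Egr1, a zinc finger factor whose transcription follows ERK activity closely, had 13.0, 11.0, 9.74 and 7.66 CPM in control and 27.5, 10.7, 13.5 and 10.6 CPM in cKO libraries. Its log2 fold change was the largest of the 28 genes at 0.59 (SE 0.31, 95% interval -0.09 to 1.27, edgeR adjusted p = 0.38). That value rested on cKO 1: without it the log2 fold change was 0.15 (edgeR adjusted p = 0.731), and the other cKO libraries lay within or just above the control range. Egr3 and Egr4, relatives of Egr1, were too low to test. Egr3 had 5, 7, 17 and 9 counts in control and 20, 5, 8 and 6 in cKO libraries, and Egr4 had 1 count in control 1, 2 each in cKO 1 and cKO 4, and 0 in the other 5 libraries, where 3 counts, the limit that a count of 0 allows, correspond to between 0.170 and 0.188 CPM.

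The NR4A genes encode orphan nuclear receptors of rapid onset, and all 3 had positive log2 fold changes without passing. Nr4a1 (also called NUR77) had 27.6, 16.7, 28.5 and 16.7 CPM in control and 44.1, 28.2, 27.1 and 29.2 CPM in cKO libraries. The control libraries fell into a high and a low pair, and 3 of the cKO libraries matched the high pair. The log2 fold change was 0.52 (SE 0.22, 95% interval 0.03 to 1.02, edgeR adjusted p = 0.269), or 0.32 without cKO 1. Nr4a2, which also acts in catecholaminergic neuron development, had 9.89 ± 1.94 and 12.4 ± 2.1 CPM (SD, n = 4 each; log2 fold change 0.32, SE 0.18, edgeR adjusted p = 0.412), with overlapping groups. Nr4a3 was scarce, with between 1 and 17 counts per library, and its interval ran from -1.23 to 1.66.

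Among the other early genes, Klf10, a TGF-beta inducible repressor, had 35.2, 31.0, 31.4 and 34.8 CPM in control and 39.7, 43.4, 40.6 and 34.2 CPM in cKO libraries. Only cKO 4 lay within the control range, and the log2 fold change was 0.25 (SE 0.11, 95% interval 0.02 to 0.49, edgeR adjusted p = 0.259). Klf4, a zinc finger factor that endothelial and mesenchymal cells also make, had 5.04 ± 1.22 and 7.16 ± 1.83 CPM (SD, n = 4 each; log2 fold change 0.50, SE 0.23, edgeR adjusted p = 0.297). Btg2, an antiproliferative gene, and Ier5 and Ier3, a regulator of apoptosis, had log2 fold changes of 0.01 (SE 0.13), 0.08 (SE 0.15) and -0.14 (SE 0.18). Plaur, the urokinase receptor gene and a late target of nerve growth factor in cultured cells, had 1.60 ± 0.38 and 1.81 ± 0.27 CPM (SD, n = 4 each; log2 fold change 0.19, SE 0.23). Arc, a synaptic activity gene, was not tested: it had 6, 8, 7 and 8 counts in control and 9, 8, 12 and 22 in cKO libraries, the highest in cKO 4. Fosl1, an AP-1 subunit, had 5 counts in all control libraries together and 2 in all cKO libraries, and it shares 1163 exon bases with Ccdc85b on the opposite strand.

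Etv1, Etv4 and Etv5 form the PEA3 family of ETS factors, standard readouts of sustained ERK and FGF signalling. Etv4 had the smallest p of the 28 genes, with 4.41, 4.33, 6.93 and 4.99 CPM in control and 8.91, 6.33, 6.13 and 8.15 CPM in cKO libraries. Control 3 lay above cKO 2 and cKO 3, so the groups overlapped. The log2 fold change was 0.51 (SE 0.20, 95% interval 0.07 to 0.96, edgeR adjusted p = 0.222). Etv5, with 32.3 ± 1.8 and 34.0 ± 5.0 CPM (SD, n = 4 each), had a log2 fold change of 0.08 (SE 0.12, 95% interval -0.19 to 0.34). Etv1 had 10.4, 18.1, 13.0 and 20.0 CPM in control and 11.4, 11.1, 13.9 and 25.9 CPM in cKO libraries, highest in both libraries numbered 4. These 2 libraries also had the most sensory neuron marker RNA of their groups, 72.3 and 170 CPM, against at most 44.6 CPM in the others. Etv1 is also made by sensory neurons, and the part of such RNA in its spread was not tested.

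Of the 4 DUSP phosphatase genes, 1 had a positive and 3 a negative log2 fold change, and none passed. Differences between the 4 were not tested. Dusp6, which inactivates ERK in the cytoplasm and is itself an ERK target, had 42.6, 39.8, 45.1 and 31.6 CPM in control and 55.9, 45.4, 62.3 and 41.3 CPM in cKO libraries. All cKO libraries but cKO 4 lay above the control range, and the log2 fold change was 0.36 (SE 0.16, 95% interval 0.02 to 0.71, edgeR adjusted p = 0.269). Dusp1, a nuclear phosphatase that stress also induces, was close to equal at 44.2 ± 10.1 and 42.5 ± 4.1 CPM (SD, n = 4 each; log2 fold change -0.06, SE 0.15, 95% interval -0.40 to 0.28). Dusp4, another nuclear phosphatase, had a log2 fold change of -0.24 (SE 0.25). Dusp5, a nuclear phosphatase specific for ERK, had 1.72, 0.940, 0.916 and 0.973 CPM in control and 1.77, 0.478, 0.738 and 1.08 CPM in cKO libraries, so that control 1 and cKO 1 stood above all others, and its log2 fold change was -0.15 (SE 0.39).

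The products of the Sprouty and Spred genes act on Ras and Raf below the receptor. Of these 5 genes, 2 had positive and 3 negative log2 fold changes, and none passed. Spry2 had 30.1 ± 3.6 and 35.2 ± 4.2 CPM and Spry4 61.4 ± 10.8 and 54.6 ± 6.5 CPM (SD, n = 4 each), with log2 fold changes of 0.23 (SE 0.13, 95% interval -0.06 to 0.51) and -0.17 (SE 0.14, 95% interval -0.48 to 0.14). Spry1, Spred1 and Spred2 had log2 fold changes of -0.07 (SE 0.20), 0.04 (SE 0.16) and -0.14 (SE 0.20). Spry1 was again highest in cKO 1, at 23.1 CPM, with the other 3 cKO libraries between 14.2 and 14.3 CPM.

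Libraries of the same group also differed in these genes. The median within-group SD of log2 CPM was 0.28 for the 28 genes, against 0.25 for the 10181 tested genes in the same range of mean level. The highest of the 8 values fell in cKO 1 for 11 genes and in control 1 for 6, together 17 of 28, where these libraries held the highest value of 31.5% of all tested genes. The lowest value fell in control 2 for 7 genes and in control 3 for 7. Control 1 and cKO 1 also had the highest summed level of the 8 muscle and cartilage markers in their groups, 62.9 and 152 CPM, against 14.9 to 24.8 CPM in the other 6 libraries. Of these markers, the muscle genes Acta1 and Tnnt3 ranged most widely, from 45 to 1904 and from 9 to 334 counts per library. Myh3 ranged from 13 to 37, and the cartilage genes Col2a1 and Sox9 from 65 to 238 and from 36 to 95 counts. Myog was at 0 in 4 libraries. The part of such tissue in the levels of the early genes was not tested. Nor was that of vessel, fibroblast and glial RNA, whose summed markers were higher in every cKO than in every control library, as were Fos and Ier2. Without control 1 and cKO 1, 0 of the 27 genes then tested passed, where 437 genes passed over the whole table. The log2 fold changes of Fos and Ier2 were then 0.45 and 0.40.

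**Figure D4:**
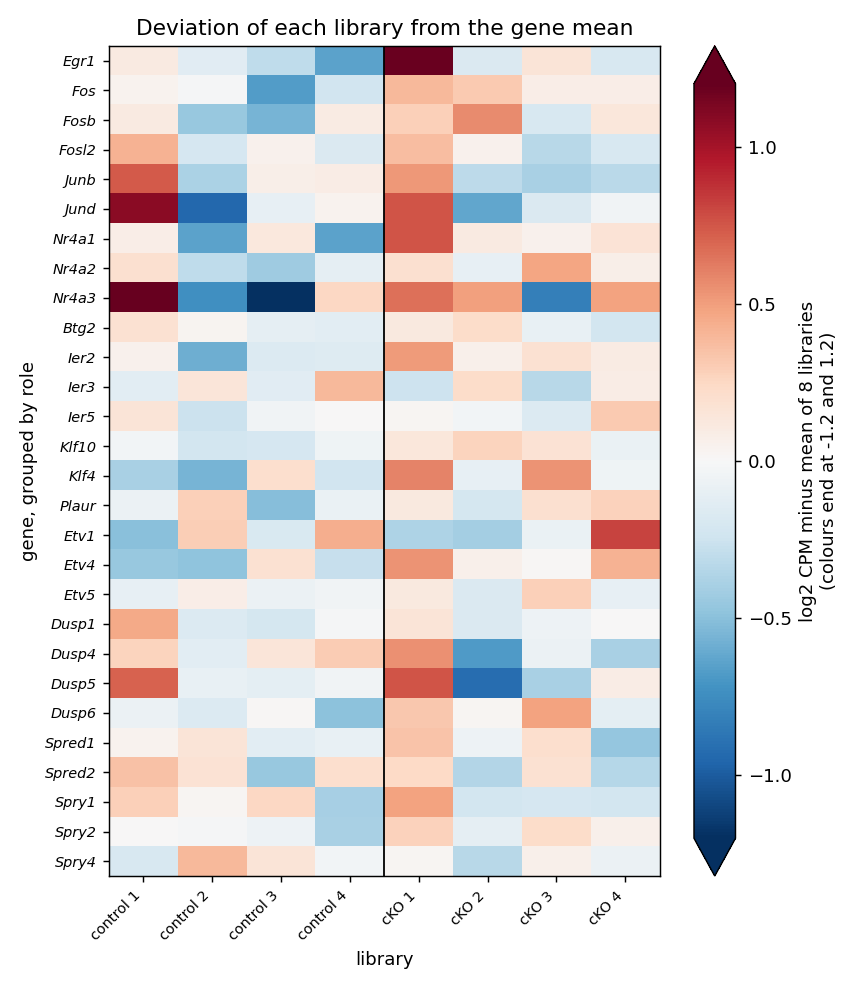
Deviation of each library (columns) from the mean log2 CPM of each of the 28 tested genes (rows, grouped by role); red is higher and blue lower, and the colour scale ends at -1.2 and 1.2. The columns of control 1 and cKO 1 are red for Junb, Jund, Nr4a3 and Dusp5 in both groups, and the cKO 1 column holds the highest value of 11 genes.

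Among genes of the machinery that relays growth factor signals to these genes, none passed, where 2.72% of all tested genes did. At that share, lists of this size would hold few calls or none. Of 36 genes of the ERK cascade, from adaptors to nuclear targets, 35 were tested and 0 passed, with 17 positive and 18 negative log2 fold changes and a median of -0.02. The smallest p-values there belonged to Shc1, an adaptor that binds activated receptors (128 ± 7 and 105 ± 9 CPM, SD, n = 4 each; log2 fold change -0.29, SE 0.10; adjusted p = 0.158 in edgeR), and Gab1, a docking protein (log2 fold change 0.50, SE 0.18, edgeR adjusted p = 0.182). Gab1 passed without control 1, at 0.68 (edgeR adjusted p = 0.0339), where 514 genes passed over the whole table, against 397 with all libraries. None of 9 tested genes that restrain Ras or the receptor passed (median -0.07), with Errfi1, an inhibitor of the EGF receptor, at 0.20 (SE 0.10) and Rasa4, a Ras GTPase activator, at 0.41 (SE 0.22). None of the other 10 MAP kinase phosphatase genes passed (median 0.07), with Dusp22 and Dusp3 both at -0.22 (SE 0.10).

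In a further list of 24 immediate early genes, of which 23 were tested, 0 passed, where 2.72% of all tested genes did. There were 12 positive and 11 negative log2 fold changes (median 0.07). Ctgf, a matrix-associated protein gene of vessels and fibroblasts, had 12.2 ± 4.5 and 20.4 ± 5.2 CPM (SD, n = 4 each; log2 fold change 0.75, SE 0.25, edgeR adjusted p = 0.158), and Csrnp1, a nuclear protein gene, stood at a log2 fold change of 0.64 with an SE of 0.24 (adjusted p = 0.211 in edgeR). Ctgf passed without control 1, at 1.03 (edgeR adjusted p = 0.0259), where 514 genes passed over the whole table, against 397 with all libraries. Counts at an unadjusted p below 0.05 were 4 of 35 in the cascade, 0 of 9 Ras and receptor restrainers, 1 of 10 phosphatases and 4 of 23 early genes, against 16.8% of all tested genes.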

How the data were processed

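The authors deposited raw read counts per gene symbol, 1 column for each of 8 libraries, and per the submitters' processing notes used STAR and mm10. Which program counted the reads, with which annotation and strand setting, is not stated in the labels. Genes were chosen by symbol, and these genes and all lists were chosen with earlier results of these data known. The test was edgeR's quasi-likelihood F test (version 4.0.16, R 4.3.3) with TMM, filterByExpr and robust fitting, comparing the groups with no covariate. A gene passed at a Benjamini-Hochberg p below 0.05 over 14592 genes. Standard errors were derived from F, and a prior count of 2 went into log2 CPM. Exact permutation tests were two-sided. RPKM used the union of exons in GENCODE vM21 (GRCm38), and motifs were searched in the RefSeq promoter table.

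All members were named. Of each other pathway list the passing genes, or else the 2 with the smallest p, were named. Alternatives were DESeq2 1.42.0 and its size factors, library size alone, other filters, limma 3.58.1 voom, a replicate block, libraries left out, and a promoter window starting 100 bases before the start. The half-site TGACG was added after promoter matches were seen. In simulated counts of 14592 genes for this comparison, 5.81% of calls were false. The labels give 1 pair of ganglia per animal, so libraries are biological replicates. Intervals from counts of 0 cover counting error only. Figures were drawn with matplotlib 3.10.9.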

Additional observations from a re-analysis of the deposited data

Results flagged for a closer look

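In 5 of 56 groups of 4 libraries (28 genes, 2 groups each), the highest library stood apart from the other 3 by more than Dixon's 95% limit, which chance passes in about 1 in 20 groups. In each of the 5 it was a library numbered 1. In cKO 1, Egr1 was at 27.5 CPM with the other cKO libraries between 10.6 and 13.5 CPM. Nr4a1 was at 44.1 CPM there, against 27.1 to 29.2 CPM. Junb was at 8.40 CPM, against 4.43 to 4.66 CPM, and Spry1 at 23.1 CPM, against 14.2 to 14.3 CPM. In control 1, Dusp5 was at 1.72 CPM with the other control libraries between 0.916 and 0.973 CPM.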

How the results depend on the processing

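None of the tested members passed under any of 17 alternatives. The smallest adjusted p was 0.0604, for Dusp6 with the replicate block. Over all genes, 397 passed (234 higher, 163 lower), 1012 with the DESeq2 Wald test (565 and 447), 687 with the replicate block (425 and 262) and 65 without control 4 and cKO 4 (26 and 39). With 1 library left out the count ranged from 74 to 514, those higher from 33 to 318 and those lower from 40 to 196. Libraries with the same label number correlated in their deviations from the group mean at 0.725, 0.352, -0.302 and 0.265 for numbers 1 to 4. The correlation was positive in 3 of 4 pairs and highest for number 1, but not in number 3, and not every library correlated best with its own number. The labels do not say that a number marks a shared litter or day, so the numbers were not taken to pair the libraries. The block kept 381 of the 397 calls.

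The 6 members with an unadjusted p below 0.05 became 2 without control 4 and cKO 4, and between 1 and 7 with 1 library left out. The share of all tested genes at that limit was not counted in those settings. The 2 members whose groups did not overlap became 4 without control 4 and cKO 4, and between 2 and 4 with 1 library left out. Smaller groups separate more often by chance, and the share of all tested genes was not counted in those settings. In the ERK cascade 1 gene, Gab1, passed with the replicate block (0.51) and without control 1 and cKO 1 (0.57), and between 0 and 1 with 1 library left out. Of the other immediate early genes 1, Ctgf, passed without control 1 and cKO 1 (1.02), and between 0 and 1 with 1 library left out. Over all genes, 437 passed without control 1 and cKO 1. In the window from 100 bases before the start, the full response element matched 0 members (1.62% of all genes), its half-site 5 (21.7%, against 15.8% of all genes) and the EGR motif 4 (17.4%, against 4.52%).

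Of 28 members, 17 kept the sign of the log2 fold change in every alternative and 11, none of them past the threshold, did not. With 1 library left out the values ran from -0.21 to 0.10 for Fosl2, -0.48 to 0.34 for Jund, -0.0281 to 0.13 for Ier5, -0.16 to 1.05 for Nr4a3, -0.14 to 0.10 for Dusp1, -0.57 to 0.11 for Dusp5, -0.29 to 0.0066 for Spry1, -0.0941 to 0.17 for Spred1, -0.34 to 0.17 for Etv1, -0.0191 to 0.14 for Etv5 and -0.0604 to 0.0855 for Btg2. Without control 1 and cKO 1 the values were 0.0123 for Jund, 0.0479 for Dusp1 and -0.0679 for Spred1, and without control 4 and cKO 4 -0.0158 for Ier5 and -0.19 for Etv1. Fosl2 was 0.0071 with library size alone, and Etv1 -0.0148 with limma voom and -0.0157 with the replicate block. The cause of these changes was not tested. A depth of 16214912 to 18114418 counts left Arc, Egr3, Egr4 and Fosl1 untested. With no filter all 32 were tested and 0 passed, where 374 genes passed over the whole table.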

Other observations

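The summed level of the list of 24 other immediate early genes was highest in the libraries numbered 1. It was 618 CPM in cKO 1 and 578 CPM in control 1, and between 458 and 481 CPM in the other 6 libraries. Abundant genes weigh most in this sum, such as Klf6 and Jun with 142.5 ± 2.5 and 94.4 ± 25.9 CPM in control (SD, n = 4). Klf6 thus varied little between control libraries. Per1 had 31.2 ± 15.4 CPM in control and 43.0 ± 29.4 CPM in cKO libraries (SD, n = 4 each). The highest library of each gene was not counted for this list. The sum of the ERK cascade genes did not follow that order: it was 4036 CPM in control 1, 4005 CPM in control 2, 3958 CPM in cKO 3 and 3865 CPM in cKO 1, and between 3514 and 3862 CPM in the other 4 libraries.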
